A study of Mus musculus with 6 samples.

Results

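The genes described here encode extracellular metalloproteases, membrane-bound and secreted serine proteases, and the inhibitors that act on them. They are the protein-coding genes whose mouse symbols place them in the Adam, Adamts, Mmp, Timp, Tmprss, Prss, Serpin (clades a, b, d, e, f, h and i) and Spint families. The rule used symbols and biotype only and found 89 genes among the 22239 in the table, of which 14861 are protein coding. They comprise 43 metalloproteases, 22 serine proteases, 18 serpins, 3 Kunitz inhibitors and 3 tissue inhibitors of metalloproteases.

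The study profiled total RNA of sorted lung epithelial cells from mice aged 8 weeks, with 2 libraries per population, numbered 1 and 2. Bronchioalveolar stem cells (BASC) were positive for the reporters CCSP-mCherry and SPC-YFP together, alveolar type 2 cells (AT2) were sorted on SPC-YFP, and Club cells on CCSP-mCherry. CCSP is the secretory protein of Club cells and SPC is surfactant protein C of AT2 cells, so each population is defined by reporter activity at the time of the sort. All 3 populations came from lung homogenate from which cells carrying CD31 or CD45, the surface markers of endothelial and blood cells, had been removed. How many mice stand behind a library is not given in the sources used here, and p-values cover only the spread among these libraries, which may be technical. In bulk RNA, more expressing cells and more RNA per cell cannot be told apart.

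ADAM proteins are membrane-anchored metalloproteases that release the outer parts of growth factors, cytokines and adhesion molecules. ADAMTS proteins are secreted relatives that cut proteoglycans and other matrix proteins, MMPs cut collagens and further matrix substrates, and TIMPs block these enzymes at the catalytic zinc. TMPRSS proteins and some PRSS proteins are serine proteases at the cell surface, which in the airway process the epithelial sodium channel and viral fusion proteins. Their membrane-bound Kunitz inhibitors are Spint1 and Spint2, while serpins trap serine proteases, and some cysteine proteases, in an irreversible complex.

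The metalloproteases share a zinc site in which 3 histidines hold the metal and a glutamate acts in catalysis. Its codons are shown for the 5 metalloproteases on which the results below turn, to set the active sites of genes with opposite patterns side by side. They were read from GENCODE mouse release M21 transcripts, 5′ to 3′ along the coding strand, with the codons of the histidines and of the glutamate in capitals.
Adam19: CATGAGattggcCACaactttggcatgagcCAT
Adam28: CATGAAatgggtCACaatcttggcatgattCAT
Adamts1: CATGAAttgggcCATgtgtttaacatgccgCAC
Adamts5: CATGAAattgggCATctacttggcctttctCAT
Mmp15: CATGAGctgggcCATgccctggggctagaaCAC
These codons lie in transcripts of chromosomes 11, 14, 16, 16 and 8. The site was found in 12 of 18 Adam genes, 12 of 13 Adamts genes and 12 of 12 Mmp genes. The eighth residue of the site is glycine in most, and asparagine (aac in Adamts1 above) in 5 Adamts genes, which include Adamts1 and Adamts9 but not Adamts5. No site was found in Adam11, Adam22, Adam23, Adam32, Adam4 and Adam7, of which Adam11, Adam22 and Adam23 are known as ADAMs without protease activity. The serine site, in which glycine and aspartate precede the serine and glycines follow it, was found in 7 of 7 Tmprss and 8 of 15 Prss genes. Its codons are shown for serine proteases described below, with the codon of the catalytic serine in capitals.
Tmprss2: ggagacAGTggaggg
Tmprss4: ggtgacAGTggtggg
Tmprss13: ggagacAGTggagga
Prss8: ggtgacTCTgggggc
These 4 transcripts lie on chromosomes 16, 9, 9 and 7. The serine is spelled AGT in the 3 Tmprss genes and TCT in Prss8.

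Estimated depth was between 10118863 and 18205636 reads per library over the genes in the table. Values are normalised read counts as deposited, so levels of different genes are compared after division by exon length, with unscaled shares beside them in a few cases. The AT2 markers were higher in AT2 than in Club cells in 9 of 9 cases and the Club markers lower in 8 of 8. Markers of other cells also differed between the populations. The 8 ciliated cell markers in the table summed to 2418 and 2443 in BASC libraries and 1907 and 2044 in AT2 libraries, against 8740 and 8450 in Club libraries, and all 8 were lower in AT2 than in Club cells. Foxj1, the regulator of motile cilia, stood at 795 and 825 in Club libraries. Msln, a mesothelial marker, stood at 379 and 182 in Club libraries against 1 and 2 in BASC and 0 in both AT2 libraries. Of the 5 mesothelial markers listed, 2 were in the table. The other, Gpm6a, had 1 and 19 in Club libraries, 0 and 3 in BASC and 0 in both AT2 libraries, too low to be tested. The fibroblast and smooth muscle markers summed to 39 and 37 in BASC libraries, 250 and 16 in AT2 libraries, and 70 and 106 in Club libraries, where 99 units of Col3a1 contributed to the high value of AT2 1. The part of these markers in the differences from Club cells was not tested.

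Of the 89 genes, 71 reached the expression filter and were tested, and no value above 39 occurred among the other 18. Only 35 genes averaged at least 100 in any population, and 22 held at least 100 in all 6 libraries. Between BASC and AT2 cells few of these genes were called: 1 gene, Adam28, was higher in BASC (1.41% of those tested, against 0.553% of all genes tested) and 0 were lower (0.079% of all genes). Without adjustment, 5 members had p under 0.05 on the higher side and 6 on the lower side. Both populations stood apart from Club cells. In BASC against Club cells 9 members were higher (12.7%, against 5.77% of all genes) and 11 were lower (15.5%, against 5.42%). In AT2 against Club cells 12 were higher (16.9%, against 8.42%) and 12 lower (16.9%, against 9.71%). The lower calls of both comparisons include Adamts13, Adamts20, Serpinb1a and Tmprss6. These were at 0 in every BASC and AT2 library and passed the filter through their Club values only. The median log2 fold change over tested members was -0.06 for BASC against AT2, 0.11 for BASC against Club and 0.23 for AT2 against Club, beside 0, -0.10 and -0.10 over all genes tested. The BASC and AT2 comparisons with Club cells share the Club libraries, and 8 of the 12 genes called higher in AT2 and 10 of the 12 called lower were called the same way in BASC. Among these 10, Adamts13, Adamts20, Serpinb1a and Tmprss6 have the same log2 fold change in both comparisons, since BASC and AT2 are at 0. The matching share over all genes was not counted. Adam15 and Serpind1 were called in BASC against Club cells but not in AT2 against Club cells, and the difference between these comparisons is the comparison of BASC with AT2, in which neither was called. Calls are limma adjusted p-values under 0.05 over all genes, with the 6 libraries in a joint fit. Without the variance trend in limma the counts were 3 higher and 6 lower in BASC against Club, and 6 higher and 9 lower in AT2 against Club. Among named genes that setting ended the BASC calls against Club of Adam15, Adam22, Adamts5, Adamts9, Mmp15, Serpinb6b, Serpinb9, Spint1, Spint2, Tmprss2 and Tmprss4. It also ended the AT2 calls of Adam17, Adam22, Mmp15, Serpina10, Serpinh1, Spint1, Spint2 and Timp3.

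**Figure D1:**
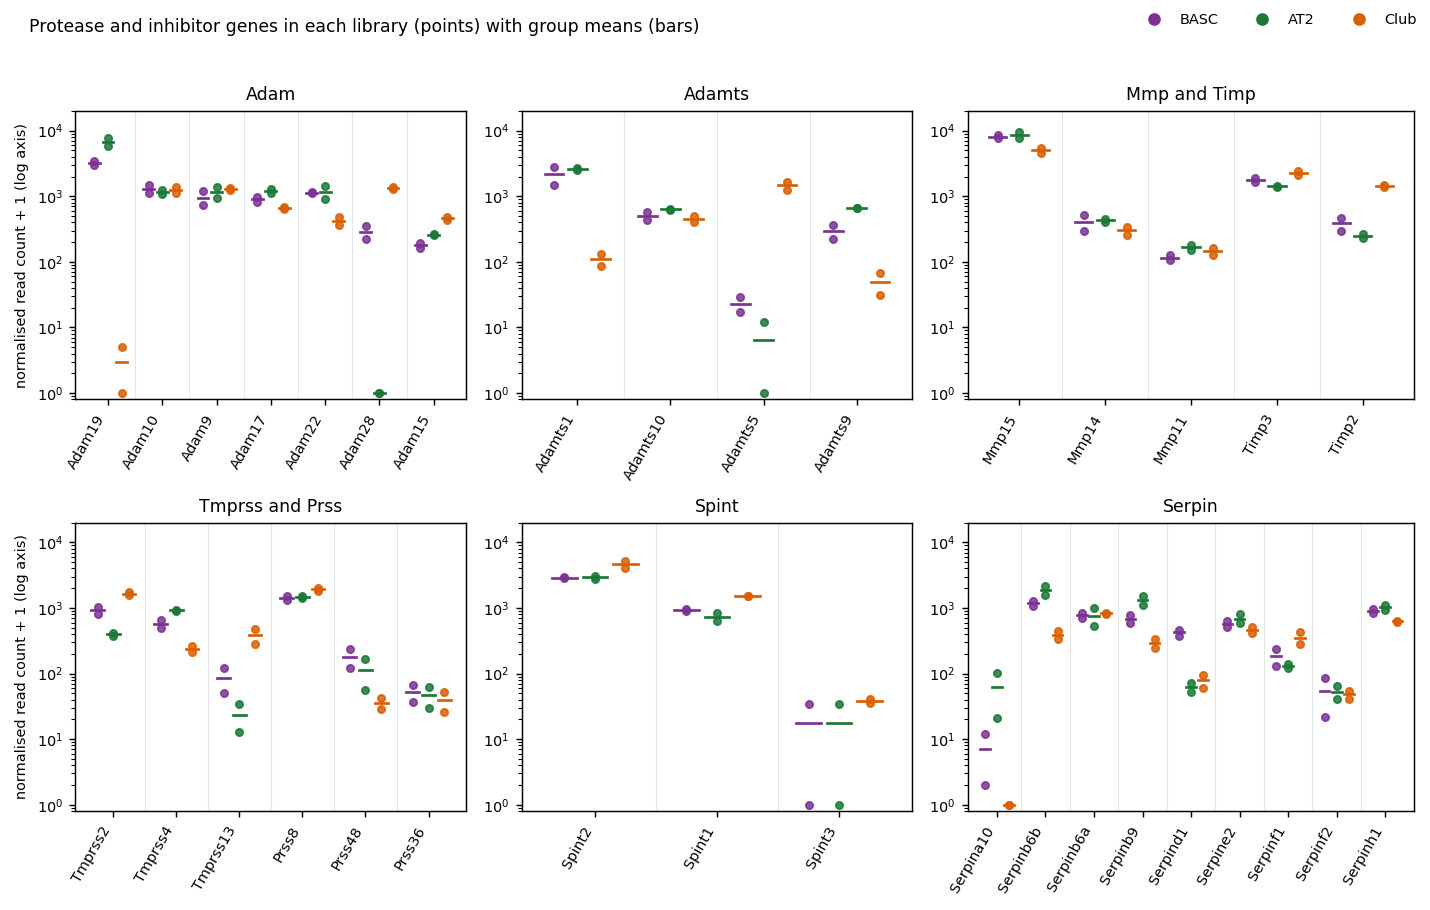
Normalised read counts (value + 1, log axis) of 34 protease and inhibitor genes in each library of BASC, AT2 and Club cells, with points for libraries and bars for population means. Adam19 and Adamts1 are high in BASC and AT2 and low in Club cells, while Adamts5 and Timp2 show the opposite order, and Adam28 is listed at 0 in both AT2 libraries.

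Among the ADAM genes, Adam19 and Adam28 had opposite distributions. Adam19 (chr11:46055992-46147343, plus strand), a sheddase known for cutting neuregulin, had 3405 and 2964 normalised counts in BASC libraries and 5765 and 7855 in AT2 libraries, against 0 and 4 in Club libraries. It was thus abundant in every BASC and AT2 library and near the floor of 3 reads, 2.29 to 4.02 units per library, in Club cells. The log2 fold change was 10.47 ± 0.66 (SE) for BASC against Club (limma adjusted p = 0.000116) and 11.56 ± 0.66 for AT2 against Club (adjusted p = 4.53e-05), sizes that depend on the pseudocount of 1 because Club values are so low. Without Club 1 they were 9.31 and 10.39, and without Club 2 11.63 and 12.72. BASC values lay below both AT2 values, at a log2 fold change of -1.08 ± 0.66 that was not called (adjusted p = 0.558). In a fit of BASC and AT2 libraries alone this difference passed, with adjusted p = 0.0438. The antisense gene Gm16033 covers 8.25% of its exons, and reads of the strands may not have been separated, since the strand setting of the counting is not given in the sources used here.

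Adam28 (chr14:68606027-68655842, minus strand), an ADAM made in membrane-bound and secreted forms, was detected in BASC and Club cells and not in AT2. It had 225 and 346 normalised counts in BASC libraries and 0 and 0 in AT2 libraries, with 1401 and 1271 in Club libraries. The 3 populations did not overlap, with Club cells highest and BASC between them and AT2. BASC held at least 104-fold more than AT2, taking 3 reads per AT2 library as the bound (fitted log2 fold change 8.13 ± 0.56, limma adjusted p = 0.00198). BASC were 4.68-fold below Club cells (log2 fold change -2.25 ± 0.56, adjusted p = 0.0447), and AT2 at least 486-fold below them (adjusted p = 3.49e-05). The call against AT2 was lost without BASC 1 or BASC 2 (adjusted p up to 0.110), and the call of BASC against Club when any single BASC or Club library was left out (up to 0.462), while the call of AT2 against Club held whichever library was left out. All these refits kept the direction.

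The other abundant ADAMs differed less. Adam10, the main constitutive sheddase of cadherins and Notch, had 1120 and 1479 counts in BASC libraries, 1075 and 1258 in AT2 libraries, and 1365 and 1119 in Club libraries, with overlapping populations. Adam9 had 1186 and 725 in BASC libraries, 1360 and 954 in AT2 libraries, and 1325 and 1256 in Club libraries, with both BASC values below the Club values. Neither was called in any comparison. Adam17, the TNF converting enzyme, had 990 and 817 in BASC libraries, 1294 and 1133 in AT2 libraries, and 683 and 643 in Club libraries. In AT2 against Club the log2 fold change was 0.87 ± 0.18 (limma adjusted p = 0.0152), a call lost without AT2 1, Club 1 or Club 2 (up to 0.0974), and BASC lay between them without a call on either side.

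Adam22, a neuronal receptor of LGI proteins in which no zinc site was found, had 1124 and 1153 counts in BASC libraries and 905 and 1416 in AT2 libraries, against 363 and 475 in Club libraries. Every BASC and AT2 library exceeded both Club libraries. The log2 fold change was 1.45 ± 0.25 for BASC against Club (adjusted p = 0.0126, lost without BASC 1 or BASC 2, up to 0.0903) and 1.44 ± 0.25 for AT2 against Club (adjusted p = 0.0081), which held whichever library was left out. Adam15, an ADAM with an integrin-binding loop in the human protein, was ordered the other way, with 161 and 194 in BASC libraries, 256 and 261 in AT2 libraries, and 440 and 476 in Club libraries. BASC fell below Club cells by 1.37 ± 0.26 on the log2 scale (adjusted p = 0.0182), a call lost without BASC 1, Club 1 or Club 2 (up to 0.178). An antisense gene covers 20.6% of its exons. The 8 remaining tested Adam genes had no value above 174, the highest being that of Adam8 in Club 1, and none was called.

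Within the ADAMTS family the leading gene changed with the population. Adamts1 (chr16:85793827-85803113, minus strand) cuts versican and aggrecan. It had 2837 and 1485 counts in BASC libraries and 2479 and 2653 in AT2 libraries, against 133 and 85 in Club libraries. BASC and AT2 overlapped each other and both lay far above Club cells. BASC stood 19.8-fold above Club cells (log2 fold change 4.26 ± 0.34, limma adjusted p = 0.000356) and AT2 23.5-fold (4.58 ± 0.34, adjusted p = 0.000145), and both calls held whichever library was left out. Adamts5 (chr16:85858170-85901125, minus strand), the neighbouring aggrecanase gene on the same strand, had 16 and 28 counts in BASC libraries and 11 and 0 in AT2 libraries, against 1661 and 1260 in Club libraries. Per kilobase of exon it averaged 135 normalised counts in Club libraries, where Adamts10 averaged 54.8. BASC were 66.4-fold lower than Club cells (log2 fold change -6.03 ± 1.17, adjusted p = 0.0192) and AT2 266-fold lower (-8.71 ± 1.17, adjusted p = 0.00262). The BASC call was lost when any single BASC or Club library was left out (adjusted p up to 0.116), with log2 fold changes between -6.41 and -5.64. The AT2 call held whichever library was left out, but its size depended on the AT2 libraries, at a log2 fold change of -10.50 without AT2 1 and -6.91 without AT2 2.

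Adamts9, also a versican-cleaving enzyme, was highest in AT2 and lowest in Club cells. It had 221 and 358 counts in BASC libraries and 653 and 657 in AT2 libraries, against 67 and 30 in Club libraries. The populations did not overlap. BASC rose by 2.62 ± 0.46 on the log2 scale against Club cells (adjusted p = 0.0129, lost without BASC 1 or BASC 2, up to 0.0945) and AT2 by 3.84 ± 0.46 (adjusted p = 0.00154). The log2 fold change of -1.22 ± 0.46 for BASC against AT2 was not called (adjusted p = 0.320). Adamts10, a binding partner of fibrillin, had 433 and 569 in BASC libraries, 639 and 620 in AT2 libraries, and 500 and 404 in Club libraries and was not called.

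Low Adamts genes outside the naming rule were also called and were picked out after their values were seen. Adamts20 had 0 in all BASC and AT2 libraries, against 56 and 74 in Club libraries, and Adamts13, the von Willebrand factor protease, 0 in the same libraries against 12 and 21. Without Club 1 or Club 2 neither of these genes passed the filter, so dependence on a single Club library could not be tested. Adamts6 had 0 and 38 in BASC libraries and 60 and 82 in AT2 libraries and was listed at 0 in both Club libraries. The Adamts13 call of BASC against Club was lost in all 4 refits in which the gene could be tested, those without a BASC or AT2 library (adjusted p up to 0.0958), and its AT2 call without AT2 1 or AT2 2 (up to 0.108). The Adamts6 call of AT2 against Club was lost when any single AT2 or Club library was left out (up to 0.173). The family had 2 genes called higher and 3 called lower of 11 in BASC against Club, where 5.77% and 5.42% of all genes were called. In AT2 against Club 3 were higher and 3 lower, where the shares of all genes were 8.42% and 9.71%. The lower calls of both comparisons were Adamts5, Adamts13 and Adamts20. Of these, Adamts13 and Adamts20 passed the filter through their Club values only, so the lower counts are no measure of the family beside those shares.

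MMP transcripts were dominated by a single gene. Mmp15 (chr8:95352268-95375080, plus strand), a membrane-type MMP, had 7701 and 8560 counts in BASC libraries and 7726 and 9382 in AT2 libraries, against 4525 and 5448 in Club libraries. Per kilobase of exon it averaged 1506.5 over BASC and 1585 over AT2 libraries, against 924 over Club libraries, and it made up between 85.8% and 91.9% of the length-scaled Mmp signal in all 6 libraries. BASC and AT2 overlapped and lay above Club cells. The log2 fold change was 0.71 ± 0.14 for BASC against Club (adjusted p = 0.0225, lost without BASC 1, BASC 2 or Club 1, up to 0.132) and 0.78 ± 0.14 for AT2 against Club (adjusted p = 0.0104, 0.0592 without AT2 2).

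Mmp14, the membrane-type collagenase that activates pro-MMP2, had 512 and 291 counts in BASC libraries, 410 and 456 in AT2 libraries, and 343 and 259 in Club libraries. Mmp11, or stromelysin 3, had 106 and 125 in BASC libraries, 153 and 181 in AT2 libraries, and 162 and 125 in Club libraries. Neither was called, and their populations overlapped in part. The gelatinase Mmp2, typical of fibroblasts, was chosen after its values were seen. It had 0 and 8 counts in BASC libraries, 61 and 0 in AT2 libraries, and 13 and 24 in Club libraries. Its highest value lay in AT2 1, the library with the highest sum of fibroblast markers, and the part of such cells in it was not tested. Mmp9 stayed at or below 19 and was not tested.

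The metalloprotease inhibitors were highest in Club cells. Timp2 (chr11:118301069-118355506, minus strand), which inhibits MMPs and takes part in pro-MMP2 activation, had 297 and 473 counts in BASC libraries and 232 and 262 in AT2 libraries, against 1467 and 1391 in Club libraries. Both comparisons with Club cells were free of overlap, and BASC lay slightly above AT2. BASC were 3.71-fold lower than Club cells (log2 fold change -1.93 ± 0.26, limma adjusted p = 0.00453) and AT2 5.79-fold lower (-2.53 ± 0.26, adjusted p = 0.000797), and both calls held whichever library was left out. Timp3, the matrix-bound inhibitor that also blocks ADAM17 and ADAMTS enzymes, had 1868 and 1624 in BASC libraries and 1387 and 1440 in AT2 libraries, against 2404 and 2141 in Club libraries. AT2 fell below Club cells by 0.68 ± 0.14 on the log2 scale (adjusted p = 0.0162, lost when any single AT2 or Club library was left out, up to 0.141), and BASC, at -0.38 ± 0.14, was not called (adjusted p = 0.146). Exons of the opposite-strand gene Syn3 cover 21.3% of those of Timp3. Timp4 had a single value above 0, 11 in Club 1. Summed per kilobase, the Timp genes gave 306 and 321 in BASC libraries and 230 and 244 in AT2 libraries, against 674 and 620 in Club libraries.

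**Figure D2:**
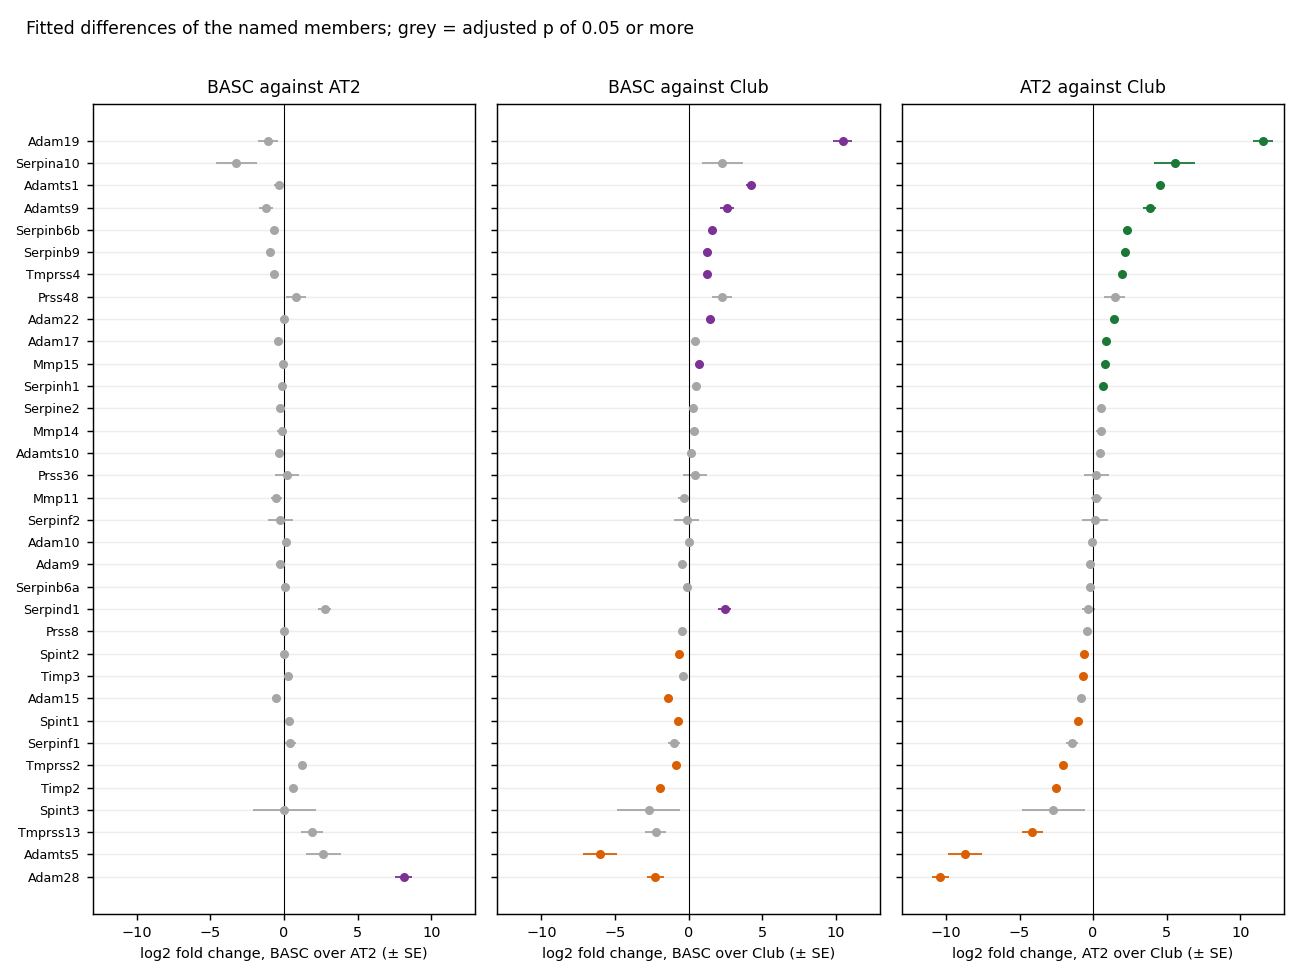
Fitted log2 fold changes with standard errors of the same 34 genes for BASC against AT2, BASC against Club and AT2 against Club, with coloured points for called genes and grey points for the others. One gene, Adam28, is coloured in the BASC against AT2 panel, and the other panels hold genes on either side of 0, such as Adam19 at 10.47 and 11.56 and Adamts5 at -6.03 and -8.71.

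Among the membrane serine proteases, Tmprss2 and Tmprss4 were ordered oppositely. Tmprss2 (chr16:97564684-97611195, minus strand), which cleaves fusion proteins of respiratory viruses, had 1033 and 807 counts in BASC libraries and 373 and 419 in AT2 libraries, with 1767 and 1549 in Club libraries. No populations overlapped, and BASC lay in the middle. BASC fell below Club cells by 0.86 ± 0.19 on the log2 scale (limma adjusted p = 0.0318, lost when any single BASC or Club library was left out, up to 0.261), and AT2 by 2.06 ± 0.19 (adjusted p = 0.000476, held whichever library was left out). Against AT2, BASC stood 2.32-fold higher with a log2 fold change of 1.21 ± 0.19 that missed the threshold (adjusted p = 0.0541). It passed in 6 of the alternatives tried, so this difference lies at the limit of the test.

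Tmprss4 (chr9:45172726-45204092, minus strand), known for activating the epithelial sodium channel, had 654 and 497 counts in BASC libraries and 912 and 936 in AT2 libraries, against 263 and 210 in Club libraries. Here AT2 was highest, Club cells lowest, and no populations overlapped. The log2 fold change was 1.27 ± 0.23 for BASC against Club (adjusted p = 0.0152, lost without BASC 1 or Club 2, up to 0.0925) and 1.97 ± 0.23 for AT2 against Club (adjusted p = 0.00147). For BASC against AT2 it was -0.70 ± 0.23 (adjusted p = 0.265). An antisense gene covers 15.9% of its exons. Tmprss13 had 119 and 50 in BASC libraries and 33 and 12 in AT2 libraries, against 484 and 282 in Club libraries. It was called lower in AT2 than in Club cells (log2 fold change -4.14 ± 0.72, adjusted p = 0.00794, 0.0638 without Club 1, with log2 fold changes between -4.83 and -3.45 as each library was left out) but not in BASC (-2.24 ± 0.72, adjusted p = 0.101). Tmprss6, which regulates hepcidin in liver, was chosen after its values were seen. It had 0 in all BASC and AT2 libraries, and 30 and 20 in Club libraries. With Club 1 or Club 2 left out the gene did not pass the filter, so dependence on a single Club library could not be tested. Its calls were lost without BASC 1 or BASC 2 in BASC against Club (up to 0.0726) and without AT2 1 or AT2 2 in AT2 against Club (up to 0.0763).

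The Prss family held 0 called genes of 11 tested. Over all genes the shares called higher and lower were 0.553% and 0.079% in BASC against AT2. They were 5.77% and 5.42% in BASC against Club, and 8.42% and 9.71% in AT2 against Club. The most abundant Prss gene was shared by all populations. Prss8, or prostasin, a lipid-anchored activator of the epithelial sodium channel, had 1324 and 1545 counts in BASC libraries and 1394 and 1522 in AT2 libraries, against 1836 and 2024 in Club libraries. Its Club values were highest in both libraries, at log2 fold changes of -0.43 ± 0.15 for BASC (adjusted p = 0.120) and -0.40 ± 0.15 for AT2 (adjusted p = 0.110). It made up between 72.5% and 90.3% of the length-scaled Prss signal. Prss48 had 121 and 234 in BASC libraries, 166 and 55 in AT2 libraries, and 41 and 28 in Club libraries, and was not called (adjusted p = 0.0905 for BASC against Club). Prss36 had 66 and 36, 62 and 29, and 52 and 25 in BASC, AT2 and Club cells. The 8 other tested Prss genes had no value above 64, that of Prss12 in AT2 1.

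The Kunitz inhibitors of these surface proteases were lower in BASC and AT2 than in Club cells. Spint1 (chr2:119237362-119249527, plus strand) had 966 and 887 counts in BASC libraries and 641 and 822 in AT2 libraries, against 1512 and 1504 in Club libraries. Spint2 (chr7:29256341-29281912, minus strand) had 2970 and 2820 in BASC libraries and 2809 and 3071 in AT2 libraries, against 4065 and 5232 in Club libraries. In neither gene did a BASC or AT2 library reach a Club library. Spint1 fell by 0.70 ± 0.18 on the log2 scale in BASC (limma adjusted p = 0.0460) and by 1.05 ± 0.18 in AT2 (adjusted p = 0.00673). Spint2 fell by 0.67 ± 0.15 in BASC (adjusted p = 0.0295) and by 0.65 ± 0.15 in AT2 (adjusted p = 0.0230). Of these, the AT2 call of Spint1 held whichever library was left out. The BASC call of Spint1 was lost when any single BASC or Club library was left out (up to 0.263), and that of Spint2 without BASC 1, BASC 2 or Club 2 (up to 0.204). The AT2 call of Spint2 was lost when any single library other than Club 1 was left out (up to 0.166). Spint3 had at most 40 counts and was not called.

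Among the serpins, Serpinb6b and Serpinb9, from a cluster on chromosome 13, were higher in BASC and AT2 than in Club cells, and Serpind1 was highest in BASC. Serpinb6b (chr13:32965209-32979067, plus strand) had 1286 and 1088 counts in BASC libraries and 1594 and 2189 in AT2 libraries, against 338 and 440 in Club libraries. Serpinb9 (chr13:33003250-33017957, plus strand), an inhibitor of granzyme B, had 776 and 587 in BASC libraries and 1111 and 1542 in AT2 libraries, against 248 and 336 in Club libraries. Both genes were highest in AT2, lowest in Club cells and free of overlap.

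The log2 fold change of Serpinb6b was 1.61 ± 0.22 in BASC against Club (adjusted p = 0.00489, 0.0568 without BASC 1) and 2.27 ± 0.22 in AT2 against Club (adjusted p = 0.00063). That of Serpinb9 was 1.22 ± 0.26 in BASC (adjusted p = 0.0279, lost without BASC 1, BASC 2 or Club 1, up to 0.146) and 2.18 ± 0.26 in AT2 (adjusted p = 0.00163). Genes of this cluster are close paralogs, so the assignment of reads between them is uncertain. The paralog Serpinb6a had 705 and 849 in BASC libraries, 539 and 980 in AT2 libraries, and 816 and 838 in Club libraries and was not called. Serpinb1a, an inhibitor of neutrophil proteases, was chosen after its values were seen. It had 0 in all BASC and AT2 libraries, and 92 and 71 in Club libraries. BASC and AT2 were each called lower than Club cells (log2 fold change -6.35). With Club 1 or Club 2 left out the gene did not pass the filter, so dependence on a single Club library could not be tested. The 4 refits without a BASC or AT2 library left the log2 fold change at -6.35.

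Serpind1 (chr16:17331371-17343575, plus strand) encodes heparin cofactor II, a thrombin inhibitor known from liver. It had 468 and 375 counts in BASC libraries and 70 and 52 in AT2 libraries, with 95 and 60 in Club libraries. BASC stood above all 4 other libraries, which overlapped each other. BASC exceeded Club cells 5.44-fold (log2 fold change 2.46 ± 0.45, limma adjusted p = 0.0153, lost without BASC 1, BASC 2 or Club 2, up to 0.0913). BASC also exceeded AT2 6.91-fold, with a log2 fold change of 2.78 ± 0.45 that missed the threshold (adjusted p = 0.0574), and passed in 5 alternatives and without Club 2 (adjusted p = 0.0440). AT2 and Club cells did not differ by a call (-0.32 ± 0.45, adjusted p = 0.701).

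Other serpins were weaker. Serpinh1, the collagen chaperone Hsp47, had 843 and 978 counts in BASC libraries and 930 and 1115 in AT2 libraries, against 619 and 641 in Club libraries. In AT2 against Club the log2 fold change was 0.69 ± 0.18 (limma adjusted p = 0.0366), a call lost when any single AT2 or Club library was left out (up to 0.207), and BASC did not pass (0.53 ± 0.18, adjusted p = 0.118). Serpina10, an inhibitor of coagulation factor X, had 11 and 1 in BASC libraries, 20 and 102 in AT2 libraries and 0 in both Club libraries.

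Its call in AT2 against Club (adjusted p = 0.0319) was lost when any single AT2 or Club library was left out (up to 0.189), and AT2 2 held most of the signal. Serpine2, or protease nexin 1, had 623 and 519 in BASC libraries, 800 and 579 in AT2 libraries, and 504 and 421 in Club libraries. Serpinf1, or PEDF, had 237 and 131 in BASC libraries and 140 and 121 in AT2 libraries, against 282 and 423 in Club libraries. Neither was called, though Serpinf1 in AT2 against Club was close (limma adjusted p = 0.0553). Serpinf1 passed there with totals without mitochondrial and rRNA genes (adjusted p = 0.0365) and with a pseudocount of 5 (0.0481). It also passed with a filter of at least 50 in 2 samples, with protein-coding genes only and with only the groups compared. Serpinf2, or antiplasmin, had between 21 and 84 in all libraries. It was not called.

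Within families, the shares of length-scaled signal showed which gene led in each population. Adam19 made up 35.5% and 33.3% of the Adam signal in BASC and 45.7% and 55.9% in AT2, against 0% and 0.0585% in Club cells, where Adam9 (30.7% and 31.7%) and Adam10 (26.5% and 23.7%) led. Adam28 held 1.82% and 3.01% in BASC, 0% in both AT2 libraries, and 14.6% and 14.4% in Club cells. In unscaled counts Adam28 held 23.35% and 22.67% in Club cells, slightly above Adam9 and Adam10, so the Club order depends on the exon lengths. Adamts1 held 83.8% and 67.2% of the Adamts signal in BASC and 73.5% and 76.1% in AT2, against 9.35% and 7.76% in Club cells. Adamts5 held at most 0.623% in BASC and AT2 libraries, against 57.4% and 56.5% in Club cells. In these 2 families the leading gene thus differed between Club cells and the other populations.

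For the Tmprss genes BASC lay between the others. Tmprss4 held 57.4% and 59.9% of the Tmprss signal in BASC and 84.8% and 81.3% in AT2, against 20.21% and 20.99% in Club cells. Tmprss2 held 32.2% and 34.5% in BASC and 12.3% and 12.9% in AT2, against 48.2% and 54.9% in Club cells. Timp2 held 24.9% and 37.8% of the Timp signal in BASC and 25.9% and 27.6% in AT2, against 55.9% and 57.6% in Club cells. By this measure Timp3 led in BASC and AT2, and Timp2 in Club cells. These orders depend on the annotated exon lengths. In unscaled counts Timp3 led in Club cells too, with 61.93% and 60.62% of the Timp counts. Tmprss2 then led in BASC, with 56.54% and 59.16% of the Tmprss counts, against 35.8% and 36.44% for Tmprss4.

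**Figure D3:**
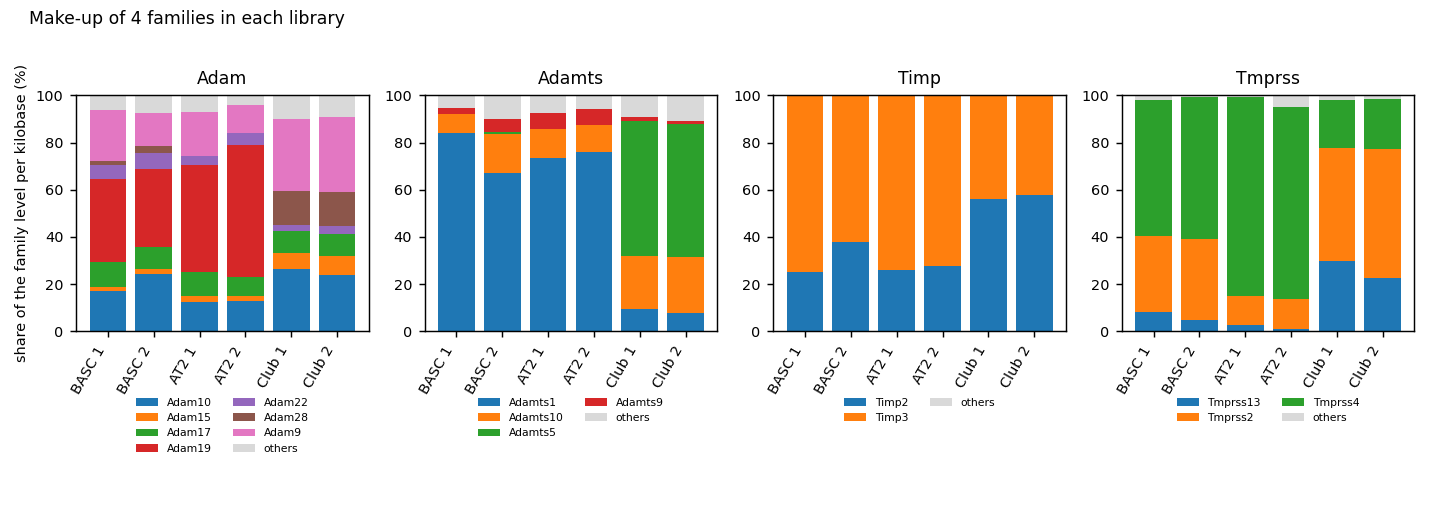
Share of each gene in the length-scaled signal (normalised counts per kilobase of exon, percent) of the Adam, Adamts, Timp and Tmprss families, as stacked bars for each of the 6 libraries of BASC, AT2 and Club cells. Adamts1 fills 67.2% to 83.8% of the Adamts bar in BASC and AT2 libraries, and Adamts5 57.4% and 56.5% in Club libraries.

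The place of BASC between the other populations was computed on the log2 scale for the 19 genes called in AT2 against Club cells with a change of at least 2-fold, with 0 at the Club level and 1 at the AT2 level. The median was 0.69, with 15 genes over 0.5 and 7 over 0.8, and 0 under 0.2. Of these, Adamts13, Adamts20, Serpinb1a and Tmprss6 were at 0 in every BASC and AT2 library and so stood at 1. Without these 4 genes, a choice made after seeing the data, the median was 0.67, with 11 of 15 genes over 0.5 and 3 over 0.8. Adam19 stood at 0.91, Adamts1 at 0.93 and Adam22 at 1.01, next to AT2. Adam28 stood at 0.22 and Tmprss2 at 0.42, nearer to Club cells on this scale, and Serpinb9 at 0.56. The median was 0.68 for the 9 genes higher in AT2 and 0.73 for the 10 genes lower in AT2, or 0.60 for the 6 left without the genes at 0. The log scale weighs low values strongly: without logs, the BASC mean of Adam19 was at 46.7% of the way from the Club to the AT2 mean, that of Adam28 at 78.6% and that of Tmprss2 at 58.5%, so that the last 2 lay nearer to AT2. These positions are descriptions, since they reuse the groups that chose the genes.

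**Figure D4:**
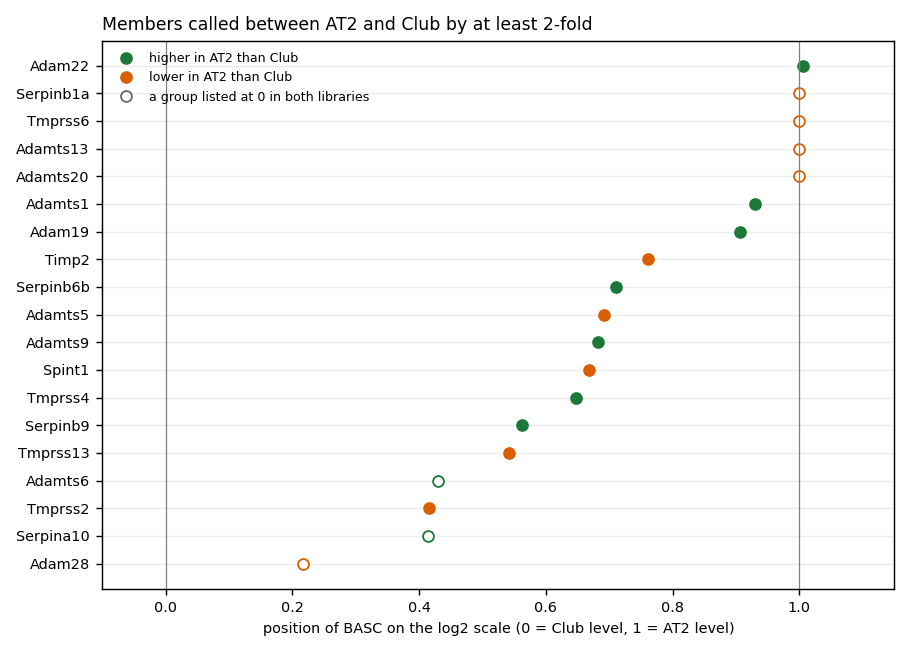
Position of BASC between Club cells (0) and AT2 cells (1) on the log2 scale for 19 protease and inhibitor genes, with open symbols where a population is listed at 0 in both libraries. Most genes lie over 0.5, Adam28 is lowest at 0.22, and Adam22 lies at 1.01.

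Genes that work with these proteases are counted by list, to be read beside the shares called among all genes, given for the higher side first. These were 0.553% and 0.079% in BASC against AT2, 5.77% and 5.42% in BASC against Club, and 8.42% and 9.71% in AT2 against Club. Of 26 tested partners, regulators and shed proteins of ADAMs and MMPs, 1 was higher and 0 lower in BASC against AT2, 4 higher and 3 lower in BASC against Club, and 9 higher and 5 lower in AT2 against Club (median log2 fold changes -0.12, 0.36 and 0.14). Tspan15, a tetraspanin that escorts ADAM10, had 425 and 176 counts in BASC libraries and 802 and 542 in AT2 libraries, against 10 and 38 in Club libraries. It was higher in BASC (log2 fold change 3.73 ± 0.70, adjusted p = 0.0164, lost without BASC 1 or BASC 2, up to 0.112) and in AT2 (4.995 ± 0.70, adjusted p = 0.00305). Leaving out each library gave log2 fold changes between 2.82 and 4.64 in BASC and between 4.08 and 5.91 in AT2. Its partner Adam10 was not called in any comparison.

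Ager, the receptor RAGE, which ADAM10 sheds, had 8336 and 8746 in BASC libraries and 8105 and 9791 in AT2 libraries, against 1390 and 1762 in Club libraries (BASC against Club 2.45 ± 0.15, adjusted p = 0.000107). Sdc4, a shed syndecan, had 9016 and 7410 in BASC libraries and 9370 and 8489 in AT2 libraries, against 3254 and 3769 in Club libraries (1.22 ± 0.14, adjusted p = 0.00192). Both were also called in AT2 against Club, and these calls held whichever library was left out. Btc, an EGF receptor ligand released by ADAM10, had 729 and 475 in BASC libraries and 123 and 134 in AT2 libraries, with 422 and 491 in Club libraries. It was the list gene called in BASC against AT2 (2.19 ± 0.29, adjusted p = 0.0275), a call lost when any single BASC or AT2 library was left out (up to 0.180).

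Of 15 tested further surface serine proteases and their substrates and receptors, 1 was higher and 0 lower in BASC against AT2, 2 higher and 5 lower in BASC against Club, and 3 higher and 6 lower in AT2 against Club (medians 0.02, -0.37 and -0.88). The sodium channel subunits, substrates of channel-activating proteases such as prostasin, were lower in BASC and AT2 than in Club cells. The difference was smallest for Scnn1a, with 5382 and 4696 counts in BASC libraries, 4082 and 4384 in AT2 libraries, and 7219 and 8445 in Club libraries. Its log2 fold change was -0.64 ± 0.13 for BASC against Club (limma adjusted p = 0.0217) and -0.88 ± 0.13 for AT2 against Club (adjusted p = 0.00357). Scnn1b had 618 and 821 counts in BASC libraries and 200 and 292 in AT2 libraries, against 5858 and 6075 in Club libraries (BASC against Club -3.06 ± 0.23, adjusted p = 0.00028). Scnn1g had 137 and 188 in BASC libraries and 134 and 183 in AT2 libraries, against 2550 and 2806 in Club libraries (-4.05 ± 0.27, adjusted p = 0.000155). Scnn1b was also higher in BASC than in AT2 (1.56 ± 0.23, adjusted p = 0.0414, lost when any single BASC or AT2 library was left out, up to 0.272). Dpp4, a surface peptidase, had 3146 and 3190 in BASC libraries and 4011 and 4092 in AT2 libraries, against 288 and 359 in Club libraries (3.30 ± 0.15, adjusted p = 3.73e-05). Met, the HGF receptor, had 6848 and 7144 in BASC libraries and 7542 and 7366 in AT2 libraries, against 4191 and 4114 in Club libraries (0.75 ± 0.10, adjusted p = 0.00349).

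Among 13 tested target proteases and cofactors of serpins, 0 were called in BASC against AT2, 1 was higher and 3 lower in BASC against Club, and 3 higher and 4 lower in AT2 against Club (medians 0, -0.33 and -0.02). Lrp1, the receptor that clears serpin complexes, had 118 and 84 in BASC libraries and 131 and 137 in AT2 libraries, against 1431 and 943 in Club libraries (BASC against Club -3.53 ± 0.33, adjusted p = 0.000864). Ctsh, a lysosomal protease that processes surfactant proteins, had 5047 and 5199 in BASC libraries and 5097 and 5916 in AT2 libraries, against 2291 and 2170 in Club libraries (1.20 ± 0.12, adjusted p = 0.00107). In BASC against AT2, 0 of these genes had an unadjusted p under 0.05 on the higher side and 2 on the lower side.

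Of 10 tested inhibitors from other families, 1 was higher and 1 lower in BASC against AT2, and 2 higher and 2 lower in either comparison with Club cells (medians -0.29, 0.02 and -0.70). Itih4, an inter-alpha-trypsin inhibitor heavy chain, had 1377 and 1682 in BASC libraries and 8474 and 10524 in AT2 libraries, with 16 and 26 in Club libraries. BASC fell below AT2 by 2.63 ± 0.27 on the log2 scale (adjusted p = 0.0103, lost when any single BASC or AT2 library was left out, up to 0.221) and exceeded Club cells by 6.15 ± 0.27 (adjusted p = 2.92e-05). Wfdc2, a secreted whey acidic protein domain protein, had 8512 and 9546 in BASC libraries and 5294 and 6658 in AT2 libraries, against 22100 and 23689 in Club libraries (BASC against Club -1.34 ± 0.13, adjusted p = 0.00114).

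Of 15 tested ADAMTS-like proteins and ADAMTS substrates, 1 was higher and 0 lower in BASC against AT2, 2 higher and 1 lower in BASC against Club, and 3 higher and 2 lower in AT2 against Club (medians -0.61, -0.49 and -0.03). Thbs1, a matrix glycoprotein cut by ADAMTS1, had 2843 and 2977 in BASC libraries and 1635 and 1884 in AT2 libraries, against 803 and 1169 in Club libraries (BASC against Club 1.59 ± 0.20, adjusted p = 0.00299). Cacna2d1, a calcium channel subunit that binds thrombospondins, had 39 and 48 in BASC and 0 in both AT2 libraries, against 755 and 768 in Club libraries. It was the list gene called higher in BASC against AT2 (log2 fold change 5.47 ± 0.78, limma adjusted p = 0.0378). That size depends on the pseudocount of 1, since AT2 is at 0 and BASC values are low. Whether this call held as each library was left out was not examined. It was lower in BASC than in Club cells (-4.11 ± 0.78, adjusted p = 0.0177), a call lost when any single BASC or Club library was left out (up to 0.252).

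Promoter windows of 250 bases before to 50 after the start were available for 58 members from RefSeq (GRCm38.p6), in 71 windows. Shown are those of Tmprss2 and Serpind1, which stood higher in BASC than in AT2 without overlap, and of Adamts1, which was low in Club cells. Capitals mark the motifs named below.
Tmprss2: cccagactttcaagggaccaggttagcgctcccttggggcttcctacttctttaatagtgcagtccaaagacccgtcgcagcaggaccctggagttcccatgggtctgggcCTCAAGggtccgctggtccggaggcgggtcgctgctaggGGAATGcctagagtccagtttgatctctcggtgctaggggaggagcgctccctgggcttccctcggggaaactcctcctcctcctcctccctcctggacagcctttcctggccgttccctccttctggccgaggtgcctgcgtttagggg
Serpind1: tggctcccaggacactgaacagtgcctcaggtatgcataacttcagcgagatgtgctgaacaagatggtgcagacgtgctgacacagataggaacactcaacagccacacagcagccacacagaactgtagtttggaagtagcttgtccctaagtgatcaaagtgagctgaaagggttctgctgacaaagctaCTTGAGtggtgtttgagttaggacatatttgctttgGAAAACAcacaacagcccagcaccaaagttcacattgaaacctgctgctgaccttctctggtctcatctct
Adamts1: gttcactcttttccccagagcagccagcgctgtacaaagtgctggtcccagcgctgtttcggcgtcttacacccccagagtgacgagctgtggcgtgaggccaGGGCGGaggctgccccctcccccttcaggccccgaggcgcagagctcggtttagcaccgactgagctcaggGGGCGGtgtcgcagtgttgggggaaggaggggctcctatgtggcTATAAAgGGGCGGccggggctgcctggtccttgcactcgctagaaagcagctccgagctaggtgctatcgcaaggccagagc
These windows are chr16:97611146-97611445 (minus strand), chr16:17331121-17331420 (plus strand) and chr16:85803064-85803363 (minus strand). Both strands were searched for the letters of 10 motifs. For lung and endoderm factors these were CTCAAG as the core of NKX2-1, then TGTTTNC as the FOXA motif, and CATTGT as that of SOX proteins. For other epithelial factors the search used GGAATG for TEAD, with AACNNGTT for the GRHL family and TTGCNNAA for C/EBP. Those of general use were CCGGAAG for ETS factors, while TGANTCA stood for AP-1, GGGCGG for SP/KLF factors and TATAAA for the TATA box. Tmprss2 and Serpind1 held the NKX2-1 core, which occurred in 5 of 71 member windows (7.04%) and in 15.9% of 32851 windows of all genes. Tmprss2 also held the TEAD letters (14.7% of all windows) and Serpind1 the FOXA letters (20.5%). Adamts1 held GGGCGG, present in 35 of 71 member windows (49.3%) and 35.7% of all, and TATAAA, present in 13.6% of all. Matches of this length are frequent in any window and are given as a description.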

How the data were processed

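Total RNA of sorted cells was made into stranded libraries from picogram inputs, per the labels' protocols. The submitters' processing notes name FastQC, STAR 2.4.0a, featureCounts 1.4.5-p1 of Subread and the build mm10 (GRCm38). In the deposited table a signal value stands for every gene and library, and the values look like read counts that were scaled by 1 factor per library and then rounded, though no source used here states this. How they were scaled, whether strand was used, and which annotation release served is not given in the sources used here. Whole reads could not be recovered for every library, so count models were not run. Estimated depth is the column total over the value of 1 read, read from gaps in the low values.

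Values were analysed as log2(value + 1) for the 17721 genes with at least 10 in 2 samples. A joint fit of all 6 libraries used limma 3.58.1 (R 4.3.3; lmFit, contrasts.fit, eBayes with trend), with 3 residual and 4.2 prior degrees of freedom. All comparisons were 2-sided with Benjamini-Hochberg adjustment over all genes, called at 0.05, and the script was tested on simulated data. Folds are ratios of group means on the deposited scale, with 3 reads per library as the bound for a group at 0, which covers counting error only. Exon lengths and overlaps came from GENCODE M21, in which 61 members had the deposited coordinates. Coordinates are the deposited ones.

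The members and gene lists were chosen with earlier results of these data known. Named were members called in any comparison whose highest group averaged 100 or more, the 3 most abundant of each family, and any called in BASC against AT2; 1 gene that this rule named is not reported here. From each other list up to 4 called genes per comparison were eligible. Alternatives covered the pseudocount, filter, scaling, trend, replicate block, samples fitted, and leaving out each library. Added after seeing the data were the active-site codons, the per-kilobase shares, the promoter letters and the positions without genes at 0.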

Additional observations from a re-analysis of the deposited data

How the results depend on the processing

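No call of a named member changed direction under any alternative. For called members outside the naming rule, direction was followed only in the fits that left out a library. In BASC against AT2 the count of members called higher, 1 in the reported fit, was 3 with a pseudocount of 5, with a filter of at least 50 in 2 samples, with quantile normalization and with protein-coding genes only. It was 2 with totals without mitochondrial and rRNA genes, with median-ratio scaling and with only the groups compared, where the count called lower was 1 in place of 0. Without the variance trend, BASC against Club gave 3 higher and 6 lower (9 and 11 reported) and AT2 against Club 6 higher (12 reported). Leaving out 1 library in turn gave 0 to 2 higher and 0 lower in BASC against AT2, 2 to 9 higher and 1 to 10 lower in BASC against Club, and 8 to 13 higher and 6 to 13 lower in AT2 against Club. For BASC against Club, the low counts came without BASC 1 (2 higher, 3 lower), BASC 2 (4 and 5), Club 1 (2 lower) or Club 2 (1 lower). Such refits keep 3 populations, so a lone library is assumed to vary like the others, and fewer samples remain. Beside the losses without the trend, the BASC call of Adam28 against Club was lost with a pseudocount of 0.5 and with the block. That of Spint1 was lost with no filter, with median-ratio scaling and with the block, and the AT2 call of Serpinh1 with no filter and with totals without mitochondrial and rRNA genes. For these changes the cause was not tested. With the replicate number as a block the counts were 1 and 0, 9 and 8, and 12 and 11. Deviations of same-numbered libraries were nearly uncorrelated across genes (r = 0.006, 0.0085 and 0.0118). What the number marks is not given in the sources used here, and whether such libraries share an animal or a day was not tested. Scaling by totals without mitochondrial and rRNA genes put the median of all genes at -0.25 on the log2 scale in AT2 against Club cells. With 2 libraries per population and values near the floor of 3 reads, low genes carry wide errors, and a missing call does not show equal levels.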
